A study of Mus musculus with 13 samples.

Results

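The receptors for the colony-stimulating factors (CSFs), the ligand Csf1 and 3 transcription factors of the macrophage lineage were followed in mouse bone marrow-derived macrophages with and without HDAC3, a histone deacetylase that works in corepressor complexes. The set holds 9 genes of 20894 genes tested: Csf1, Csf1r, Csf2ra, Csf2rb, Csf2rb2, Csf3r, Spi1, Cebpa and Cebpb. They were taken by gene name among the non-control probes of the array design, which gave 15 probes of 41174, and 14 of those probes and all 9 genes passed the filter on dim signals.

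Macrophages were grown from the marrow of 12 to 16 week-old male C57BL/6 mice for 6 days in 30% L929 conditioned medium, a usual source of CSF1, and this medium was shared by every group. There were 4 groups: HDAC3 KO cells with IL-4 (n = 3), control cells with IL-4 (n = 3), HDAC3 KO cells with vehicle (n = 3) and control cells with vehicle (n = 4). KO cells carried the floxed Hdac3 gene (exons 4 to 7 flanked by loxP sites) and Cre recombinase driven by the lysozyme M promoter, while control cells carried the floxed gene without Cre, so that Cre and HDAC3 loss cannot be told apart. IL-4 was given at 10 ng/mL for 24 hours and vehicle was 0.1% bovine serum albumin. Whether replicate arrays stem from different mice or from one culture is not stated, so a p-value here reflects the scatter among arrays, and that scatter may be technical.

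CSF receptors carry the signals that keep macrophages alive and set their number. CSF1R is the receptor tyrosine kinase for CSF1 (M-CSF), on which the survival of most macrophages depends. The receptor for GM-CSF pairs an alpha chain, encoded by Csf2ra, with the beta common chain, encoded by Csf2rb, which also serves the receptors for IL-3 and IL-5. Mice have a second, closely related beta chain, encoded by Csf2rb2, that serves the IL-3 receptor alone. CSF3R binds G-CSF and is best known from neutrophils. PU.1 (gene Spi1, named Sfpi1 in the files), C/EBP alpha (Cebpa) and C/EBP beta (Cebpb) are DNA-binding factors that establish and maintain myeloid cells, and Csf1r is a textbook target of PU.1.

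The genes behind the 2 beta chains lie near each other on chromosome 15 and have similar transcripts, so the sequences on the array bear on how their values can be read. The brightest Csf2rb probe (A_52_P52618, chr15:78181168-78181227 of build mm9, plus strand) and the single Csf2rb2 probe (A_51_P146753, chr15:78113126-78113185, minus strand) contain a related stretch of 30 bases, in which 27 bases are identical. The stretch is shown 5′ to 3′ with the differing bases in capitals.

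Csf2rb: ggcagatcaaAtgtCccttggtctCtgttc

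Csf2rb2: ggcagatcaaGtgtTccttggtctAtgttc

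Counted from 1 at the 5′ end of the stretch, the substitutions with the Csf2rb base first are A11G, C15T and C25A. The longest run of identical bases between these 2 probes was 10 bases. Signals of either gene on the probe of the other were not measured, so the 2 genes' values are given as uncertain with respect to each other. A second Csf2rb probe (A_52_P492939, chr15:78178640-78178699, plus strand) shared no run longer than 6 bases with the Csf2rb2 probe, and it is shown because it reads Csf2rb apart from that stretch.

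Csf2rb A_52_P492939: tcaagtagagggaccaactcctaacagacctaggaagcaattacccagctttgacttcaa

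The single Spi1 probe (A_52_P498086) is shown because every Spi1 value below rests on it. Its 60 bases are spread over 13788 bases of the genome (chr2:90939665-90953452, plus strand), so it crosses a splice junction and reads spliced transcript.

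Spi1 A_52_P498086: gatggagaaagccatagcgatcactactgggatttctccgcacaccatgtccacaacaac

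Levels below are log2 background-corrected intensities minus the 75th percentile of the same array, so a level of 0 is that percentile. Levels of different probes are not set against each other, since probes differ in brightness for reasons other than RNA amount. Arrays carry the hybridisation numbers of the sample titles. Genes were called changed at a limma adjusted p under 0.05, with Benjamini-Hochberg adjustment over all 20894 genes. In these bulk samples, fewer cells of a type and less RNA per cell cannot be told apart.

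The labels were checked first. The Hdac3 probe averaged -3.57 ± 0.457 in KO IL-4 cells and -2.04 ± 0.259 in control IL-4 cells (SD, n = 3 each), and -3.46 ± 0.281 in KO vehicle cells (SD, n = 3) and -2.05 ± 0.21 in control vehicle cells (SD, n = 4). KO cells thus kept 34.7% of the control signal under IL-4 and 37.6% in vehicle, with limma adjusted p of 0.00381 and 0.00292. Its exon was not established here, so whether it falls in the deleted part is not known, and it was well above background on 2 of the 3 KO IL-4 arrays. Of 21 genes known as macrophage markers or as PU.1 or C/EBP targets, 20 or 21 were well above background on each array. Between 56.2% (control vehicle array 4) and 83.2% (control vehicle array 2) of non-control spots were well above background. Across genes, the replicate SD had a median of 0.245 in KO IL-4 arrays, 0.186 in control IL-4 arrays, 0.15 in KO vehicle arrays and 0.181 in control vehicle arrays. Arrays lay on 4 slides, and every group always occupied the same place on a slide, so that place and group cannot be told apart.

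In vehicle, 5 of the 9 genes were higher in KO than in control cells and none were called lower. They were both beta chain genes, Cebpa, Csf1r and Cebpb, and their rises ran from 1.32-fold for Cebpb to 2.16-fold for Csf2rb. Over all genes tested, 4.68% were called in this comparison with 2.39% higher and 2.29% lower. The 9 genes had a median log2 fold change of 0.41, beside 0.022 over all genes. In 7 of the 9 genes the KO and control vehicle arrays did not overlap, beside 16.8% of all genes.

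IL-4 in control cells raised Csf2rb and Csf2rb2, again by over 1 log2 unit, and Spi1 fell. The 3 calls stand beside a background of 5.70% of genes called, with 2.64% higher and 3.05% lower. The median log2 fold change of the 9 genes was 0.42, beside -0.002 over all genes, and control IL-4 and control vehicle arrays stood apart in all 9 genes, beside 16.7% of all genes. The comparison shares the control vehicle arrays with HDAC3 loss in vehicle, so low or high values there enter both.

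None of the 9 genes was called for HDAC3 loss under IL-4 or for IL-4 in KO cells. At an unadjusted p under 0.05, limma gave 4 of the 9 for HDAC3 loss under IL-4 and 5 for IL-4 in KO cells, beside 14.9% and 12.4% of all genes in the same order. The share of genes called after adjustment was 3.59% of genes called for HDAC3 loss under IL-4 (1.94% higher and 1.65% lower) and 2.22% for IL-4 in KO cells (1.12% higher and 1.10% lower). KO IL-4 arrays did not overlap control IL-4 arrays in 6 of the 9 genes, beside 17.8% of all genes, and did not overlap KO vehicle arrays in 4, beside 18.5% of all genes. The median log2 fold changes of the 9 genes were 0.28 for HDAC3 loss under IL-4 (-0.028 over all genes) and 0.31 for IL-4 in KO cells (-0.062 over all genes).

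**Figure D1:**
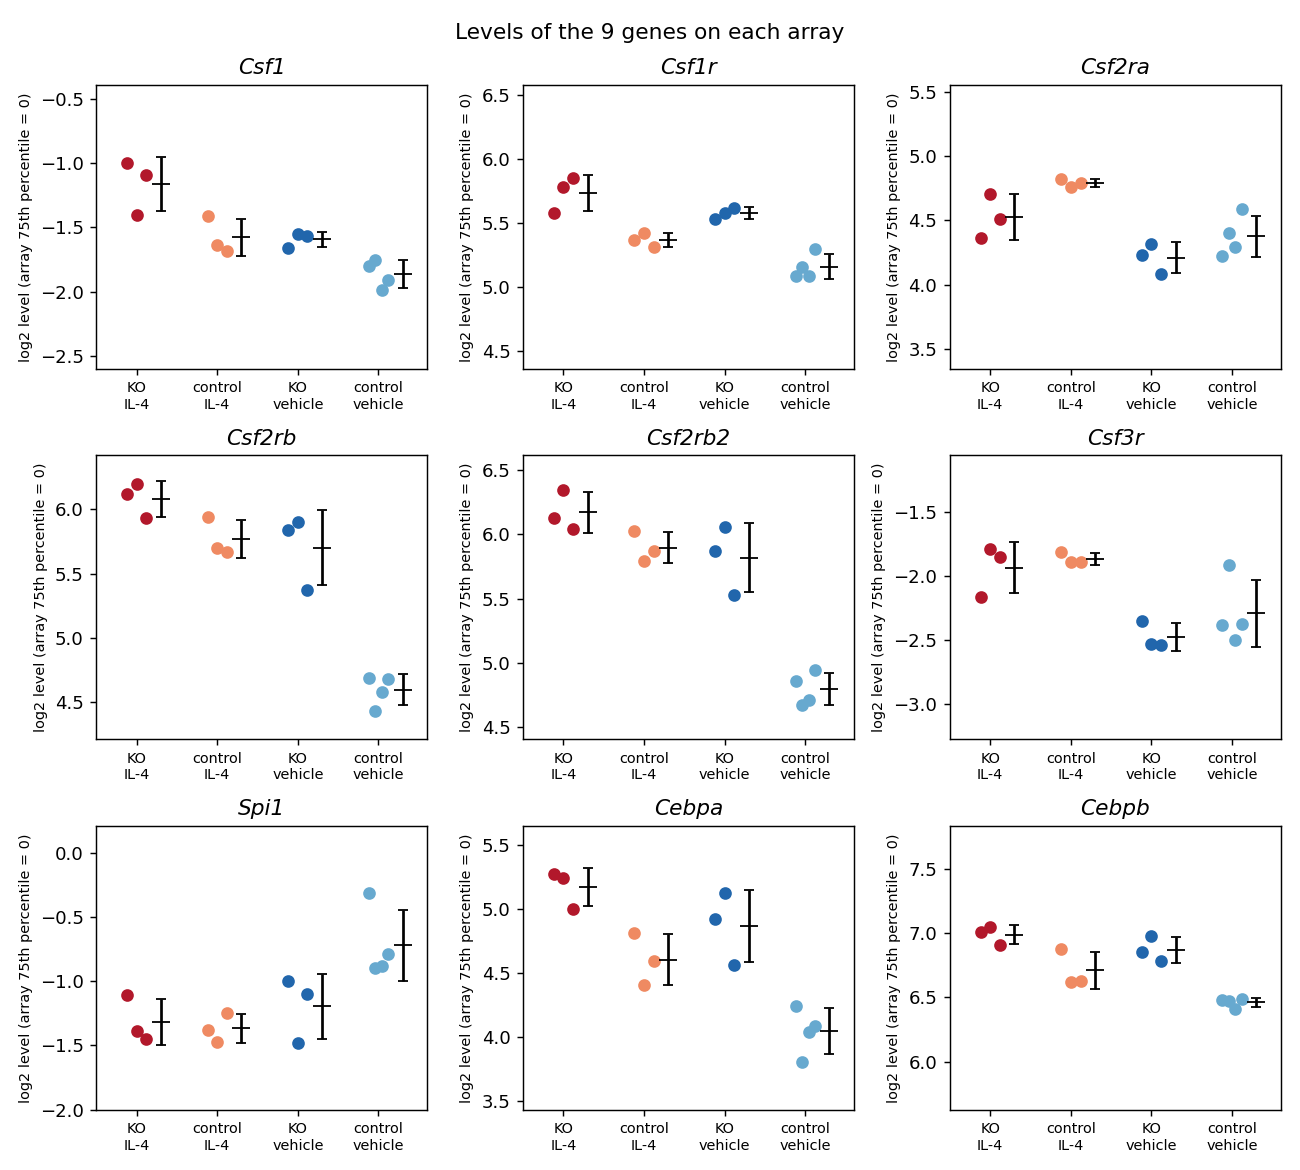
Log2 level (array 75th percentile = 0) of each of the 9 genes on every array, with KO IL-4, control IL-4, KO vehicle and control vehicle from left to right; points are arrays, the crossbar is the group mean and the error bar 1 SD (n = 3, and n = 4 for control vehicle). Every panel spans the same range of log2 units. Csf2rb and Csf2rb2 lay lowest in control vehicle cells, and Spi1 lay highest there.

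The ligand Csf1, which macrophages can make for themselves, was measured by 1 probe printed on 10 spots. Its levels were -1.0, -1.40 and -1.09 on KO IL-4 arrays, -1.41, -1.64 and -1.68 on control IL-4 arrays, -1.66, -1.55 and -1.57 on KO vehicle arrays, and -1.80, -1.75, -1.99 and -1.91 on control vehicle arrays. KO IL-4 arrays were the highest and control vehicle arrays the lowest, while control IL-4 and KO vehicle arrays overlapped. No comparison was called for Csf1. The largest log2 differences were 0.43 for IL-4 in KO cells (95% interval 0.16 to 0.70, limma adjusted p = 0.125) and 0.41 for HDAC3 loss under IL-4 (0.14 to 0.68, adjusted p = 0.114). Both passed the threshold without KO IL-4 array 14, with log2 fold changes of 0.54 (adjusted p = 0.0452) and 0.53 (adjusted p = 0.0384). Over 26 alternatives they passed it in 5 and 4, in the same order.

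Csf1r, the CSF1 receptor, had levels of 5.58, 5.78 and 5.85 on KO IL-4 arrays and 5.37, 5.42 and 5.31 on control IL-4 arrays. They were 5.53, 5.58 and 5.62 on KO vehicle arrays, and 5.09, 5.16, 5.09 and 5.30 on control vehicle arrays. KO arrays were thus above control arrays under either treatment. In vehicle the difference was 0.41 ± 0.0934 log2 units (SE), a 1.33-fold rise (limma adjusted p = 0.0271). Under IL-4 it was 0.37 (95% interval 0.15 to 0.59), which was not called (adjusted p = 0.076). The call in vehicle was close to the threshold. It was lost without any one of control vehicle arrays 1, 2 and 3 and KO vehicle arrays 5, 6 and 7, with adjusted p from 0.0644 without control array 2 to 0.111 without KO array 6, and with slide as a fixed block (0.0621) or median scaling (0.233).

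Csf1r had another 2 probes. In vehicle the KO-over-control difference was 0.62 log2 units on probe A_52_P602091 (adjusted p = 0.00459 over all probes) and 0.48 on probe A_52_P570471 (adjusted p = 0.413), and KO and control arrays did not overlap on either. All 3 probes of the CSF1 receptor therefore gave higher values on every KO vehicle array than on any control vehicle array. IL-4 moved the receptor less: the log2 fold change was 0.16 in KO cells (adjusted p = 0.57) and 0.21 in control cells (adjusted p = 0.336).

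Csf2ra encodes the chain that binds GM-CSF itself. Its levels were 4.36, 4.71 and 4.51 on KO IL-4 arrays and 4.82, 4.76 and 4.79 on control IL-4 arrays. They were 4.23, 4.32 and 4.08 on KO vehicle arrays, and 4.22, 4.40, 4.29 and 4.59 on control vehicle arrays. Control IL-4 arrays were the highest, above every KO IL-4 array and every control vehicle array, and the vehicle groups overlapped. The alpha chain was not called in any comparison. Its log2 fold changes were -0.27 for HDAC3 loss under IL-4 (95% interval -0.54 to 0, adjusted p = 0.346), -0.16 for HDAC3 loss in vehicle (adjusted p = 0.701), 0.31 for IL-4 in KO cells (adjusted p = 0.309) and 0.42 for IL-4 in control cells (0.16 to 0.67, adjusted p = 0.0626). The IL-4 difference in control cells passed the threshold in 7 of 26 alternatives. Among them were those without control vehicle array 4 (0.49, adjusted p = 0.0385) and without KO IL-4 array 14 (0.42, adjusted p = 0.0389).

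Csf2rb, the beta common chain gene, had levels of 6.12, 6.20 and 5.93 on KO IL-4 arrays, 5.94, 5.70 and 5.67 on control IL-4 arrays, 5.84, 5.90 and 5.37 on KO vehicle arrays, and 4.69, 4.43, 4.58 and 4.68 on control vehicle arrays. Every array with HDAC3 loss, IL-4 or both lay above every control vehicle array. Csf2rb rose by 1.11 ± 0.14 log2 units (SE) with HDAC3 loss in vehicle, 2.16-fold (limma adjusted p = 0.00083). IL-4 raised it in control cells by 1.18 ± 0.14 log2 units (SE), 2.26-fold (limma adjusted p = 0.000352). KO vehicle arrays and control IL-4 arrays overlapped, with means of 5.70 ± 0.292 and 5.77 ± 0.145 (SD, n = 3 each).

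Where HDAC3 loss and IL-4 were combined, the further difference in Csf2rb was smaller and not called. KO IL-4 exceeded control IL-4 arrays by 0.31 log2 units (95% interval -0.02 to 0.64, adjusted p = 0.37), with overlap, and exceeded KO vehicle arrays by 0.38 (0.05 to 0.71, adjusted p = 0.307), without overlap. The IL-4 response was smaller in KO than in control cells by a difference of -0.80 log2 units (95% interval -1.25 to -0.35). That difference had an unadjusted p of 0.00234 and a limma adjusted p of 0.796, so it was not called. For this difference of responses, 0.00479% of all genes (1 gene) and 0 of the 9 genes were called, and 2 of the 9, Csf2rb and Csf2rb2, had an unadjusted p under 0.05, beside 3.91% of all genes.

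Csf2rb2, the IL-3-specific beta chain gene, followed the same order. Its levels were 6.13, 6.35 and 6.04 on KO IL-4 arrays, 6.03, 5.79 and 5.87 on control IL-4 arrays, 5.87, 6.06 and 5.53 on KO vehicle arrays, and 4.86, 4.67, 4.71 and 4.94 on control vehicle arrays. Again the control vehicle arrays were alone at the bottom. HDAC3 loss in vehicle raised it by 1.02 ± 0.136 log2 units (SE), 2.03-fold (limma adjusted p = 0.00115), and IL-4 in control cells by 1.10 ± 0.136 (SE), 2.14-fold (limma adjusted p = 0.000476). The differences not called were 0.28 for HDAC3 loss under IL-4 (adjusted p = 0.423), 0.35 for IL-4 in KO cells (adjusted p = 0.336) and -0.74 for the difference of IL-4 responses (95% interval -1.18 to -0.31, unadjusted p = 0.00308, adjusted p = 0.819).

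These 4 calls in the beta chain genes were made under all 26 alternatives tried. For HDAC3 loss in vehicle the adjusted p reached at most 0.0255 for Csf2rb and 0.0114 for Csf2rb2, and for IL-4 in control cells at most 0.0107 and 0.00742 in the same gene order. Within slides, where a group has 1 array at most, the KO-minus-control difference of Csf2rb in vehicle was 1.14, 1.48 and 0.79 log2 units on slides 1, 2 and 3. The IL-4-minus-vehicle difference of Csf2rb in control cells was 1.24, 1.27 and 0.99 on slides 1, 2 and 4.

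The 3 Csf2rb probes did not all agree. For HDAC3 loss in vehicle and for IL-4 in control cells, probe A_52_P664853 gave the smallest differences. Probe A_52_P492939, printed above, averaged -1.44 ± 0.319 in KO IL-4 cells, -2.08 ± 0.514 in control IL-4 cells and -2.19 ± 0.374 in KO vehicle cells (SD, n = 3 each), and -3.62 ± 0.794 in control vehicle cells (SD, n = 4). It was higher by 1.43 log2 units with HDAC3 loss in vehicle (adjusted p = 0.0717 over all probes, not called) and by 1.54 with IL-4 in control cells (adjusted p = 0.0426). On control vehicle arrays it was well above background on 3 of 4, at -3.09, -3.11 and -3.52. Control vehicle array 4, at -4.78, was not, and it lowers the control vehicle mean. The size of both differences on this probe is therefore uncertain. Probe A_52_P664853, which lies further upstream in the transcript, differed by 0.20 with HDAC3 loss in vehicle (95% interval -0.40 to 0.81, adjusted p = 0.931) and by 0.37 with IL-4 in control cells (-0.23 to 0.98, adjusted p = 0.647), and its groups overlapped.

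**Figure D2:**
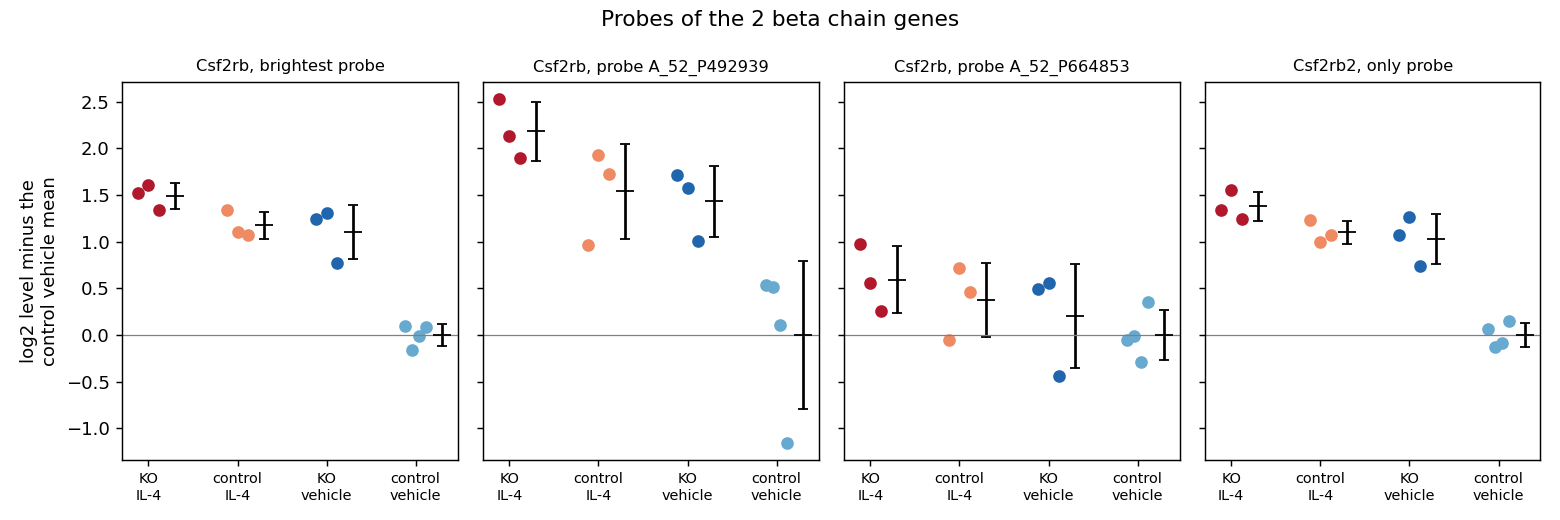
Log2 level of each probe of the beta chain genes on every array minus the mean of the 4 control vehicle arrays for that probe, with KO IL-4, control IL-4, KO vehicle and control vehicle from left to right; points are arrays, the crossbar is the group mean and the error bar 1 SD. The brightest Csf2rb probe and the Csf2rb2 probe moved by over 1 log2 unit in all 3 groups, and the groups overlapped on probe A_52_P664853. Probe A_52_P492939 moved by more with a wider spread, but its control vehicle mean includes array 4, which was not well above background.

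Csf3r, the G-CSF receptor gene, had levels of -2.16, -1.79 and -1.85 on KO IL-4 arrays and -1.81, -1.89 and -1.89 on control IL-4 arrays. Vehicle arrays were lower, at -2.35, -2.53 and -2.54 in KO cells and -2.38, -1.91, -2.50 and -2.37 in control cells. IL-4 arrays lay above vehicle arrays in each genotype, while KO and control arrays overlapped under each treatment. No difference was called: the log2 fold change with IL-4 was 0.54 in KO cells (95% interval 0.20 to 0.88, adjusted p = 0.117) and 0.43 in control cells (0.11 to 0.74, adjusted p = 0.142). Both passed the threshold without control vehicle array 2, the highest vehicle array, at 0.54 (adjusted p = 0.0416) and 0.55 (adjusted p = 0.0212). With HDAC3 loss the differences were -0.07 under IL-4 (adjusted p = 0.89) and -0.18 in vehicle (adjusted p = 0.75).

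Spi1 was the 1 gene of the set that was called lower in any comparison. PU.1 transcript levels were -1.11, -1.39 and -1.45 on KO IL-4 arrays, -1.38, -1.47 and -1.25 on control IL-4 arrays, -1.0, -1.48 and -1.10 on KO vehicle arrays, and -0.31, -0.90, -0.88 and -0.79 on control vehicle arrays. Control vehicle arrays were the highest and the other 3 groups overlapped. Spi1 fell by 0.65 log2 units with IL-4 in control cells (SE 0.166), to 63.9% of the vehicle signal (limma adjusted p = 0.0438). The difference with HDAC3 loss in vehicle was -0.47 (95% interval -0.83 to -0.11, adjusted p = 0.184), and under IL-4 it was 0.05 (-0.34 to 0.44, adjusted p = 0.933).

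The Spi1 call was weak. It was made in 9 of 26 alternatives and lost without any one of the 7 arrays compared, with adjusted p from 0.0544 without control vehicle array 2 to 0.145 without control IL-4 array 10. It was also lost on leaving out KO IL-4 array 14 (0.0509) or 15 (0.0573) or KO vehicle array 5 (0.0532) or 7 (0.0594), which enter through the shared spread. Control vehicle array 1 held the highest Spi1 level of the 13 arrays, and without it the difference was -0.51 (adjusted p = 0.0845).

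Cebpa, which encodes a factor that drives granulocyte and macrophage commitment, had levels of 5.27, 5.24 and 5.0 on KO IL-4 arrays, 4.81, 4.41 and 4.59 on control IL-4 arrays, 4.92, 5.12 and 4.56 on KO vehicle arrays, and 4.24, 3.81, 4.04 and 4.09 on control vehicle arrays. KO arrays were above control arrays under each treatment. HDAC3 loss in vehicle raised Cebpa by 0.82 ± 0.156 log2 units (SE), 1.77-fold (limma adjusted p = 0.0102). The call was lost without KO vehicle array 5 (0.80, adjusted p = 0.0581) or 6 (0.70, adjusted p = 0.0663). Under IL-4 the difference was 0.57 (95% interval 0.20 to 0.93, adjusted p = 0.108), and IL-4 gave 0.30 in KO cells (adjusted p = 0.51) and 0.56 in control cells (0.22 to 0.90, adjusted p = 0.0646). The difference in control cells passed the threshold in 7 of 26 alternatives, among them without KO vehicle array 7 (adjusted p = 0.0401).

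A second, dimmer Cebpa probe (A_51_P214087, chr7:35905361-35905420 of build mm9, plus strand) gave the calls the other way round. On it HDAC3 loss differed by 0.61 log2 units under IL-4 (adjusted p = 0.0447 over all probes) and by 0.41 in vehicle (adjusted p = 0.162), with no overlap of KO and control arrays in either. It is shown because the treatment in which C/EBP alpha transcript passed the test depended on the probe.

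Cebpa A_51_P214087: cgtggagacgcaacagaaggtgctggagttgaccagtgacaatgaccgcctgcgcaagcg

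Cebpb, whose product is induced during macrophage activation, had levels of 7.01, 7.05 and 6.91 on KO IL-4 arrays, 6.88, 6.62 and 6.63 on control IL-4 arrays, 6.85, 6.98 and 6.78 on KO vehicle arrays, and 6.48, 6.47, 6.41 and 6.49 on control vehicle arrays. The control vehicle arrays lay close together and below all others. HDAC3 loss in vehicle raised Cebpb by 0.41 ± 0.0924 log2 units (SE), 1.32-fold (limma adjusted p = 0.0284). That call was lost without any one of the 4 control vehicle arrays or KO vehicle arrays 5 and 6, with adjusted p from 0.0635 without control array 4 to 0.158 without KO array 6, and with slide as a fixed block (0.0746) or median scaling (0.252). The log2 differences not called were 0.28 for HDAC3 loss under IL-4 (adjusted p = 0.188), 0.12 for IL-4 in KO cells (adjusted p = 0.67) and 0.25 for IL-4 in control cells (adjusted p = 0.205). The other Cebpb probe (A_52_P605846) was the 1 probe of the set that did not pass the filter, and it was not well above background on 1 to 3 arrays of each group.

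**Figure D3:**
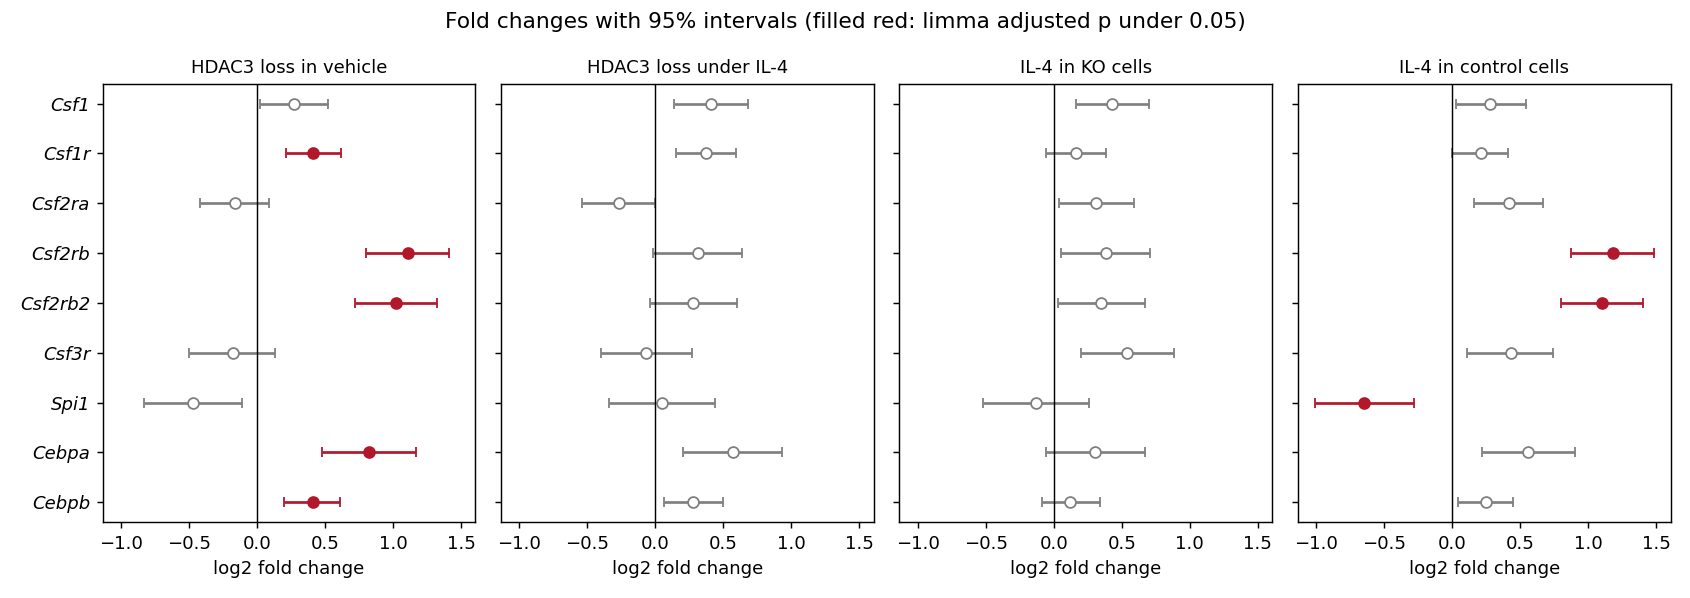
Log2 fold change (point) with its 95% interval (bar) for each of the 9 genes in 4 comparisons: KO over control in vehicle, KO over control under IL-4, IL-4 over vehicle in KO cells and IL-4 over vehicle in control cells. Filled red points passed a limma adjusted p of 0.05; 5 did so for HDAC3 loss in vehicle, 3 for IL-4 in control cells and none in the other comparisons.

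For each gene called in any comparison, the genes whose level moved most like it over the 13 arrays were listed by the mean absolute difference of log2 levels after each gene was centred. Csf2rb and Csf2rb2 were each other's closest match, at 0.0573 log2 units, where the median over all genes was 0.574 for Csf2rb and 0.536 for Csf2rb2. These values come from the probes with the related stretch, and signal of either gene on the other's probe was not measured. Wfs1 and Fzd7 came next for both, at 0.113 and 0.123 from Csf2rb and 0.105 and 0.111 from Csf2rb2. Csf1r was closest to Osbpl2 (0.0458), Fam117b (0.0771) and Lair1 (0.0795), beside a median of 0.28. Spi1 was closest to Trp53rka (0.11), Kcnj2 (0.128) and Bcl9 (0.128), beside a median of 0.334. Cebpa was closest to Dbi (0.0832), Rhoc (0.0901) and Sh3tc1 (0.106), beside a median of 0.449, and Cebpb to Tmem50a (0.0436), Lrp12 (0.0535) and Ttc30a1 (0.0567), beside a median of 0.274.

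Promoters of 6 of the 9 genes were taken from the RefSeq promoter table (build GRCm38.p6): Csf1, Csf2ra, Csf2rb2, Csf3r, Cebpa and Cebpb. Those of Csf1r, Csf2rb and Spi1 were not searched, so the search says nothing about these genes. A window of 250 bases before to 50 bases after the start site was searched on both strands for GAGGAA, a PU.1 core, for TTGCNNAA, a C/EBP half-site pair, and for CCAAT, the box that gave C/EBP its name. Matches of different motifs may overlap. GAGGAA was found in Csf2ra, Csf2rb2 and Csf3r, beside 28.3% of 32851 promoters in the table. TTGCNNAA (10.8% of promoters) and CCAAT (37.4%) had no match in the 6 windows, which says only that these letters are not in these windows. In Csf3r the match began 86 bases before the start site. The promoters of Csf2rb2, which changed most of the 6, and of Csf2ra, which was not called, are shown up to the start site with GAGGAA or its reverse complement in capitals.

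Csf2rb2 (chr15:78305722-78305971, minus strand): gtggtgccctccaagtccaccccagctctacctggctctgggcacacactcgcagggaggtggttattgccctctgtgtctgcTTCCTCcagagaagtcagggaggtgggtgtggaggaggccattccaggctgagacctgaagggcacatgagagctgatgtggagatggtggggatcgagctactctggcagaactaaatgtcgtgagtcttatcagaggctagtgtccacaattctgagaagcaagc

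Csf2ra (chr19:61228419-61228668, minus strand): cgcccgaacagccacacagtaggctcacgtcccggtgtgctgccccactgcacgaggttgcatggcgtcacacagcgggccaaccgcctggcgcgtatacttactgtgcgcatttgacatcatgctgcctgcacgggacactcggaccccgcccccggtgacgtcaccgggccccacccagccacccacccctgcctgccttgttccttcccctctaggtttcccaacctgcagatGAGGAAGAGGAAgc

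In Csf2rb2 the match lies on the opposite strand, 167 bases before the start site, with another on that strand 29 bases after it. In Csf2ra the 2 matches adjoin each other, 14 and 8 bases before the start site. A receptor gene that was called and a receptor gene that was not called thus both carried the letters, and the matches are descriptions, not sites of binding.

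Other ligands and receptors of the family gave few calls. Of 11 listed, 7 were tested, and Csf2, Il3, Il5 and Kit were too dim to pass the filter. The only calls were in Kitl, the ligand of the receptor KIT, which was higher in KO than in control cells under IL-4 by 0.58 ± 0.112 log2 units (SE; limma adjusted p = 0.014) and higher with IL-4 in KO cells by 0.59 ± 0.112 (adjusted p = 0.0174). A second Kitl probe gave 0.05 (adjusted p = 0.933) and 0.11 (adjusted p = 0.822) for the same comparisons. Both calls were lost with the mean of a gene's probes, with only the compared groups or without KO IL-4 array 13, the first also without control IL-4 array 10 and the second also without any 1 of the KO vehicle arrays. Kitl averaged 0.67 in KO IL-4 cells, 0.10 in control IL-4 cells, 0.09 in KO vehicle cells and -0.11 in control vehicle cells. For HDAC3 loss in vehicle and for IL-4 in control cells 0 of the 7 were called by limma, beside 4.68% and 5.70% of all genes. In the same order, 1 and 0 had an unadjusted p under 0.05, beside 13.6% and 14.5% of all genes.

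Genes of signalling downstream of CSF receptors numbered 34 tested of 35. For HDAC3 loss in vehicle 2 were higher and 3 lower, for HDAC3 loss under IL-4 1 was higher and 2 lower, for IL-4 in KO cells 3 were higher, and for IL-4 in control cells 5 were higher and 5 lower. The list medians were 0, 0.02, -0.01 and -0.01 in the same order. Of all genes tested, 4.68%, 3.59%, 2.22% and 5.70% were called in these comparisons, again in that order. Ccnd1, which encodes the cell cycle regulator cyclin D1, was lower in KO cells under IL-4 (log2 fold change -1.20, adjusted p = 0.000967) and in vehicle (-1.13, adjusted p = 0.000607). Dok2, an adaptor that restrains tyrosine kinase signalling, was higher in KO cells in vehicle (0.93, adjusted p = 0.00181), and Ptpn6, the phosphatase SHP-1, was lower (-0.61, adjusted p = 0.0335). Another Ptpn6 probe gave -0.51 in vehicle and was not called (adjusted p = 0.204).

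The cytokine-inducible inhibitor Cish was not well above background on any control vehicle array. It was at least 2.55-fold higher in KO than in control vehicle cells (measured means -2.64 and -5.20, adjusted p = 0.00126) and at least 11-fold higher in control IL-4 than in control vehicle cells (means -0.53 and -5.20, adjusted p = 1.16e-05). In KO cells IL-4 raised it by 3.23 log2 units (adjusted p = 0.000726). Socs1, an inhibitor of JAK kinases, rose with IL-4 by 2.37 in KO cells (adjusted p = 8.21e-05) and 2.53 in control cells (adjusted p = 1.08e-05). Socs1 was lower in KO than in control cells under IL-4 (-0.89, adjusted p = 0.027) and in vehicle (-0.73, adjusted p = 0.0446). Jak2, the kinase bound to the beta common chain, rose with IL-4 by 0.56 in KO cells (adjusted p = 0.0162) and 0.90 in control cells (adjusted p = 0.000219), although a dimmer Jak2 probe gave -0.52 in KO cells (adjusted p = 0.304). Lyn, a Src family kinase, was higher in KO cells under IL-4 (0.53, adjusted p = 0.0242) and fell with IL-4 in control cells (-0.94, adjusted p = 0.000248). Another Lyn probe gave 0.55 (adjusted p = 0.155, not called) and -1.22 (adjusted p = 0.000879) in the same order.

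Of 30 further transcription factors of myeloid lineages, 25 were tested. For HDAC3 loss in vehicle 4 were higher and 2 lower, for HDAC3 loss under IL-4 2 were higher and 2 lower, for IL-4 in KO cells 4 were higher, and for IL-4 in control cells 7 were higher and 3 lower. The list medians were -0.05, 0.05, 0.15 and 0.04. The shares of all genes called were 4.68%, 3.59%, 2.22% and 5.70% in the same order. Egr2, a zinc finger factor of macrophage differentiation, and Bhlhe40, a basic helix-loop-helix repressor, were higher in KO cells in vehicle, by 1.97 and 1.83 log2 units (adjusted p = 6.72e-05 and 0.0052). Egr1, its relative, and Spic, a PU.1-related factor of iron-recycling macrophages, were lower, by log2 fold changes of -0.74 and -0.83 (adjusted p = 0.000607 and 0.0287).

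Under IL-4, Irf8, a partner of PU.1 in monocyte development, and Cebpg, a C/EBP family member, were higher in KO cells by 0.63 (adjusted p = 0.0217) and 0.72 (adjusted p = 0.0153), and Egr1 and Spic were lower (-0.55 and -0.87, adjusted p = 0.00759 and 0.0364). Other Cebpg probes gave 0.33 (adjusted p = 0.147) and 0.52 (adjusted p = 0.143), neither called. IL-4 raised Klf4, a factor of monocyte differentiation, by 0.85 in KO cells (adjusted p = 0.00222) and 1.26 in control cells (adjusted p = 3.63e-05). Cebpd, a C/EBP member linked to inflammatory induction, fell with IL-4 in control cells (-1.25, adjusted p = 0.00126).

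Of the 21 macrophage markers and PU.1 or C/EBP target genes, 20 were tested. For HDAC3 loss in vehicle 4 were higher and 3 lower, for HDAC3 loss under IL-4 6 were higher and 3 lower, for IL-4 in KO cells 1 was higher and 4 lower, and for IL-4 in control cells 2 were higher and 7 lower. The list medians were 0.10, 0.21, -0.10 and -0.27. The shares of all genes called were 4.68%, 3.59%, 2.22% and 5.70% in the same order. Itgam, the integrin chain CD11b, was higher in KO cells under IL-4 (1.84, adjusted p = 0.000358) and in vehicle (1.43, adjusted p = 0.000607). Msr1, a scavenger receptor, was higher in KO cells under IL-4 (0.53, adjusted p = 0.0122) and in vehicle (0.90, adjusted p = 0.000279). Its other probes were not called under IL-4 (0.37, adjusted p = 0.218, and 0.32, adjusted p = 0.131). Ccr2, the receptor for monocyte chemoattractants, was lower in KO cells under IL-4 (-1.10, adjusted p = 0.00929) and in vehicle (-1.38, adjusted p = 0.00118). Aif1, an actin-binding protein, was also lower in KO cells under IL-4 (-0.76, adjusted p = 0.0131) and in vehicle (-1.08, adjusted p = 0.000803). IL-4 lowered Cd14, a co-receptor for lipopolysaccharide, in KO cells (-1.36, adjusted p = 0.00051) and in control cells (-2.17, adjusted p = 4.88e-06), and raised the mannose receptor Mrc1 by 0.86 (adjusted p = 0.000713) and 1.34 (adjusted p = 8.39e-06). Among the 6 genes higher in KO cells under IL-4 were also Lyz1 (0.76, adjusted p = 0.00213), Cd14 (0.88, adjusted p = 0.00633) and Fcgr3 (0.62, adjusted p = 0.00967). Fcgr3 was higher in vehicle too (0.82, adjusted p = 0.000847).

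**Figure D4:**
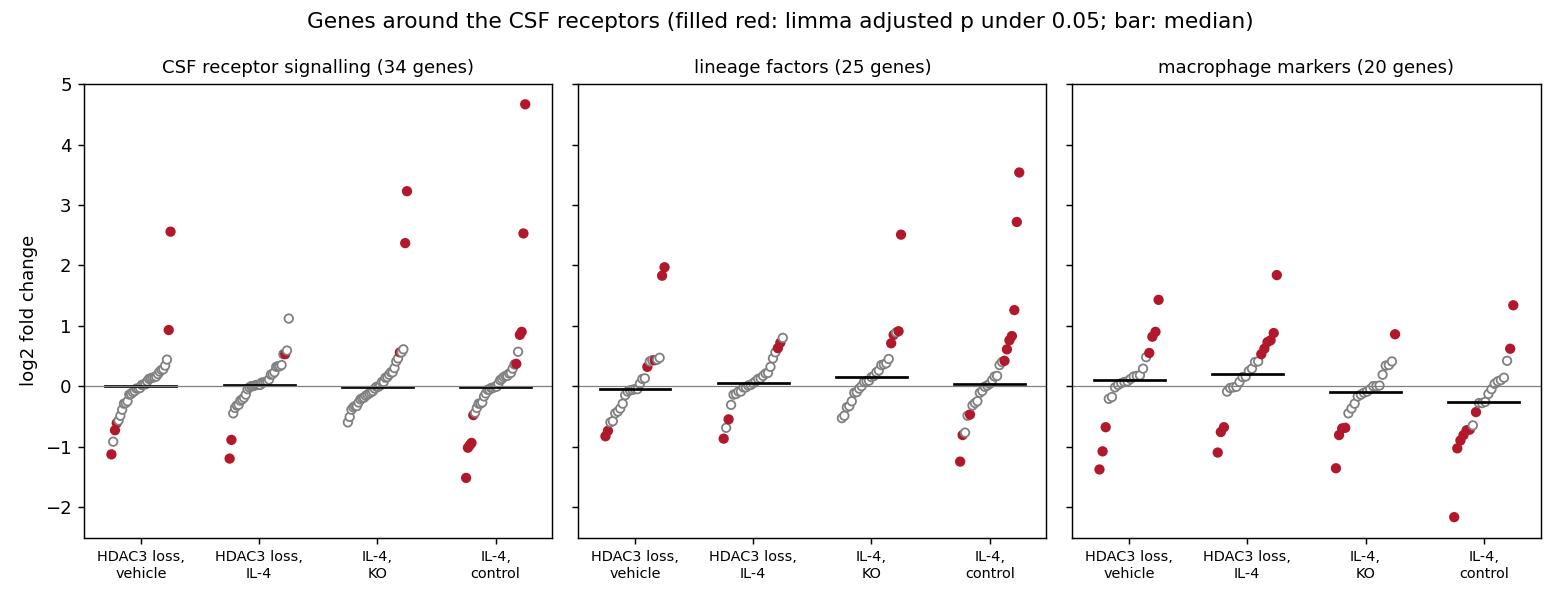
Log2 fold changes of the tested genes of 3 lists around the CSF receptors (34 signalling genes, 25 lineage transcription factors and 20 macrophage markers) in 4 comparisons: KO over control in vehicle, KO over control under IL-4, IL-4 over vehicle in KO cells and IL-4 over vehicle in control cells. Points are genes in order of fold change, filled red where the limma adjusted p was under 0.05, and the bar is the list median; medians ran from -0.27 to 0.21 while single genes moved by several log2 units, Cish (whose fold is only a bound against control vehicle) the most.

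Markers of other cells that marrow cultures can hold were set beside the receptor changes. Of 11 granulocyte and granulocyte precursor markers tested, limma called 0 in each of the 4 comparisons, with 0 to 2 at an unadjusted p under 0.05. Summed signal of that list (relative to the array's 75th percentile) was 10.2 to 17.9 in KO IL-4, 8.56 to 16.5 in control IL-4, 9.48 to 14.7 in KO vehicle and 8.85 to 17 in control vehicle arrays, and 7 to 14 of 15 genes were well above background. Lymphocyte markers had sums of 2.32 to 2.70 in KO IL-4, 2.12 to 2.57 in control IL-4, 2.31 to 2.68 in KO vehicle and 2.09 to 2.79 in control vehicle arrays. Of 8 tested, Klrb1c, an NK cell receptor gene, was higher in KO cells in vehicle (2.17, adjusted p = 0.00833, well above background on 1 of the 4 control vehicle arrays) and under IL-4 (1.84, adjusted p = 0.0354, well above background on 1 of the 3 control IL-4 arrays), and Cd79b, of the B cell receptor, was lower in vehicle (-0.75, adjusted p = 0.0408). A second Klrb1c probe gave 1.21 (adjusted p = 0.0978) in vehicle and 0.20 (adjusted p = 0.87) under IL-4. Sums of mast cell, basophil, erythroid and stromal markers overlapped in the same way, from 5.44 to 7.32 over all arrays, and limma called 0 of the 10 tested. Over all genes, 2.22% to 5.70% were called in the 4 comparisons, and 12.4% to 14.9% had an unadjusted p under 0.05.

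The summed signal of dendritic cell markers differed between the groups, while 2 of the 6 genes tested were called. The sums were 45.4 to 56.7 in KO IL-4, 35.4 to 42.6 in control IL-4, 8.35 to 15.3 in KO vehicle and 4.49 to 5.31 in control vehicle arrays, with 4 to 6 of 9 genes well above background. Over the 6 genes the median log2 fold change was 0.12 for HDAC3 loss in vehicle, 0.06 for HDAC3 loss under IL-4, -0.23 for IL-4 in KO cells and 0.12 for IL-4 in control cells. The called genes were Itgax (CD11c) and Irf4, both also expressed by macrophages, beside 2.22% to 5.70% of all genes called in the 4 comparisons. Mean Itgax levels were 5.48 on KO IL-4 arrays, 5.05 on control IL-4 arrays, 3.27 on KO vehicle arrays and 1.14 on control vehicle arrays. These were the highest mean signals of the 6 genes in every group, so Itgax weighed most in the sums. Itgax was higher in KO vehicle than control vehicle cells by 2.13 log2 units (adjusted p = 0.000607) and with IL-4 by 2.21 in KO cells (adjusted p = 0.00118) and 3.90 in control cells (adjusted p = 6.03e-06). Irf4 rose with IL-4 by 2.96 in KO cells (adjusted p = 5.32e-07) and 2.53 in control cells (adjusted p = 5.57e-07), and was lower in KO vehicle than control vehicle cells (-0.68, adjusted p = 0.00738), where the beta chain genes were higher. Cd209a, Ccr7 and Clec9a did not pass the filter on dim signals, and Flt3, Zbtb46, Xcr1 and Dpp4 were called in none of the comparisons. The part of such cells in the receptor changes was not tested.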

How the data were processed

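RNA from 13 samples was amplified and labelled with Cy3, per the labels' protocols, and read on 1-colour Agilent arrays. The deposited scanner files hold linear spot intensity values from Agilent Feature Extraction 10.5.1.1 with mm9 coordinates, per the file headers. The submitters' processing notes name version 9.53 and limma. The authors' deposited value table, also intensity on a linear scale (column medians 181 or 181.5, correlation with the log2 scanner signal at least 0.998), served as an alternative; how it was normalized is not stated in the sources used here.

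Array controls and 101 probes flagged as outliers were left out, and none was saturated. Levels are the log2 of gProcessedSignal less the 75th percentile of that array. The filter kept 29059 probes that were well above background throughout 1 or more groups, and the brightest stood for its gene. Spi1 is called Sfpi1 in the files, and 61% of probes were named through a RefSeq accession. Groups were compared in R 4.3.3 by the two-sided moderated test of limma 3.58.1, in a single fit over the 13 arrays with Benjamini-Hochberg adjustment. A group with no array well above background gives a bound: the bright group's mean against, per array, the higher of the dim probe's value and the lowest signal well above background. The scripts were tested on simulated data. The number of arrays limits the precision.

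The members and gene lists were chosen with earlier results of these data known. All 9 members are named, with Hdac3 and, for called members, the 3 genes nearest in level over the arrays. Called genes of the lists were taken from the up to 4 per comparison with the smallest adjusted p, and not all of those are named. A gene so named may be given for other comparisons too. Alternatives changed scaling, background correction, probe filter and choice, slide, variance, array weights and arrays.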

Additional observations from a re-analysis of the deposited data

How the results depend on the processing

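Over 26 alternatives, the calls of Csf2rb and Csf2rb2 for HDAC3 loss in vehicle and for IL-4 in control cells were all made. Of the 9 genes, 5 were called for HDAC3 loss in vehicle; the count was 3 with median scaling, no filter on dim probes, slide as a fixed block or without both arrays of slide 4, and 2 to 5 when 1 array was left out. For HDAC3 loss under IL-4 the count of 0 became 1 with quantile normalization, the authors' value table or probes well above background on all arrays, 2 with the mean of a gene's probes, 3 with normexp or with trend and robust variance, and 4 with array weights; it was 0 to 1 with 1 array left out. For IL-4 in KO cells the count of 0 became 1 with quantile normalization, normexp, the authors' value table or array weights, and was 0 to 1 with 1 array left out. For IL-4 in control cells the count of 3 became 5 with normexp or probes well above background on all arrays 6 with trend and robust variance or array weights, 4 with quantile normalization, and 2 with median scaling, no filter on dim probes, only the compared groups or without both arrays of slide 4, and was 2 to 3 with 1 array left out. The cause of these changes was not tested.

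Some differences that were not called turned in sign. For Csf1r the difference of IL-4 responses was 0.01 with median scaling, 0.02 with the mean of probes and 0.03 without KO IL-4 array 13 (-0.10 to 0.03 with 1 array left out). For Csf3r, HDAC3 loss under IL-4 was 0.05 without KO IL-4 array 13 (-0.14 to 0.05), and the difference of IL-4 responses was -0.01 without control vehicle array 2 (-0.01 to 0.23). For Spi1, HDAC3 loss under IL-4 was -0.03 with array weights, 0 without control IL-4 array 10 and -0.05 without KO IL-4 array 13 (-0.05 to 0.12). No called difference turned in sign.

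Over all genes, calls ran from 452 to 1800 for HDAC3 loss in vehicle (978 as reported), 89 to 1385 for HDAC3 loss under IL-4 (750), 116 to 810 for IL-4 in KO cells (463), 525 to 2623 for IL-4 in control cells (1190) and 1 to 10 for the difference of IL-4 responses (1). Calls in the lists moved with them: of the signalling genes 3 to 12 were called for HDAC3 loss in vehicle (5 as reported) and 8 to 18 for IL-4 in control cells (10), and of the lineage transcription factors 3 to 15 (6) and 6 to 15 (10). For HDAC3 loss under IL-4 the signalling genes had 0 to 7 calls (3), the lineage factors 0 to 5 (4) and the macrophage markers 1 to 12 (9), and for IL-4 in KO cells 1 to 8 (3), 1 to 8 (4) and 2 to 6 (5). The counts of 3 and 4 under IL-4 were 1 each without KO IL-4 array 14. Slide as a random block had a consensus correlation of 0.0368. No paired analysis by hybridisation number was possible because no such number occurs in more than 1 group. Slide, which holds up to 4 groups, was the block instead. Slide 3 held no control IL-4 array and slide 4 held control arrays alone, so the slides are not balanced over the groups. As a fixed block, slide ended the calls of Csf1r (adjusted p = 0.0621) and Cebpb (0.0746) for HDAC3 loss in vehicle. The fit on the compared groups alone gives no difference of IL-4 responses. Signal over background limits the dim probes, and control vehicle array 4 had the fewest spots above it.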
